A study of Mus musculus with 36 samples.

Results

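The comparison set 3 bead arrays of kidney cortex from Balb/c mice given 1.3 MBq of 177Lu-octreotate against 3 arrays of cortex labelled 0 MBq, the controls, all labelled 24 h. These 6 arrays of 36 were taken by their titles, and a gene was tested where it was detected on at least 3 of the 18 cortex arrays, which left 10803 of 18316 genes and unnamed probes. The whole study covered cortex and medulla at 0, 1.3, 3.6, 14, 45 and 140 MBq, with 3 arrays in each of 12 groups, and 1.3 MBq was the lowest activity injected. Every sample carries the strain Balb/c and the nuclide 177-lutetium in its labels, the controls included, and the activity is the one labelled difference between the groups compared. Whether each array of a group is a separate animal is not stated, and the p-values then reflect only how far these samples lie from each other, which may be technical. In bulk tissue, fewer cells of a type and less RNA per cell cannot be told apart.

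Octreotate is a peptide that binds somatostatin receptors, and its 177Lu-labelled form delivers beta radiation to neuroendocrine tumours. The peptide is filtered in the glomerulus and taken back by proximal tubule cells, which makes the kidney cortex an organ at risk. Proximal tubule cells draw most of their energy from fatty acids burned in mitochondria, a programme that the nuclear receptor PPARA drives, and they also make glucose. Kidney cells hold a circadian clock, in which BMAL1 (the product of Arntl) with CLOCK switches on the Per and Cry repressor genes, and damaged DNA is answered through the transcription factor p53.

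Markers of kidney tubule and glomerulus were present, as the cortex label requires. Of 25 proximal tubule markers on the array 24 were detected on at least 1 of the 6 arrays and 22 on all 6, and all 7 thick limb and all 7 podocyte markers were detected on every one. The median raw signal was 203, 176 and 147 on 1.3 MBq replicates 1 to 3 and 112, 164 and 166 on control replicates 1 to 3, within 112 to 208 over the 18 cortex arrays, of whose 25697 probes between 12152 and 13147 were detected. Control replicate 1 stood apart: its signal was the lowest and its median correlation with the other cortex arrays was 0.938, against 0.948 to 0.975 for the other 17. The labels name no batch. The number of arrays limits the precision.

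At 1.3 MBq, the called rises in cortex included the PPARA targets Angptl4 and Creb3l3, the mitochondrial carriers Slc25a20, Slc25a42 and Slc25a25, the pyruvate carboxylase gene Pcx and the clock repressor Per2, and the clock activator Arntl was among the called falls. The levels rose for Angptl4 (6.14-fold), Psat1 (5.57-fold), G0s2 (4.75-fold), Slc25a25 (4.51-fold) and Pcx (3.04-fold). The histone methyltransferase gene Nsd1 fell by 1.60 ± 0.16 on the log2 scale on the probe tested, while its weaker probe gave 0.00 ± 0.32. By limma's test with Benjamini-Hochberg adjustment, 36 of 10803 genes were called at an adjusted p under 0.05 (0.333%), 22 higher (0.204%) and 14 lower (0.13%). Of these, 18 higher and 10 lower carried a gene name. Unadjusted p-values under 0.05 were found for 622 genes higher (5.76%) and 693 lower (6.41%), and the median difference over all genes was -0.02 on the log2 scale. The 3 treated arrays lay beyond the 3 controls for all 36 called genes, and for 9.13% (above) and 9.62% (below) of all genes. Counts within the gene lists below are to be read against these shares over all genes. The lists and their members were chosen with earlier results of these data known, so such counts describe a list and do not test it. The test drew its spread from all 18 cortex arrays. With only the 6 arrays in the fit limma called 0 genes, with 572 higher and 622 lower at an unadjusted p under 0.05. Leaving out 1.3 MBq replicates 1, 2 or 3 gave 10, 14 or 18 calls, and leaving out control replicates 1, 2 or 3 gave 12, 18 or 157. Of the 36 genes 9 were called in each of these 6 leave-one-out fits. Without control replicates 1 and 2 limma called 0 genes, with 192 higher and 242 lower at an unadjusted p under 0.05. Where a gene's call ended in a leave-one-out fit, the arrays concerned are named with the range of its log2 difference and its highest adjusted p over the 6 fits.

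**Figure D1:**
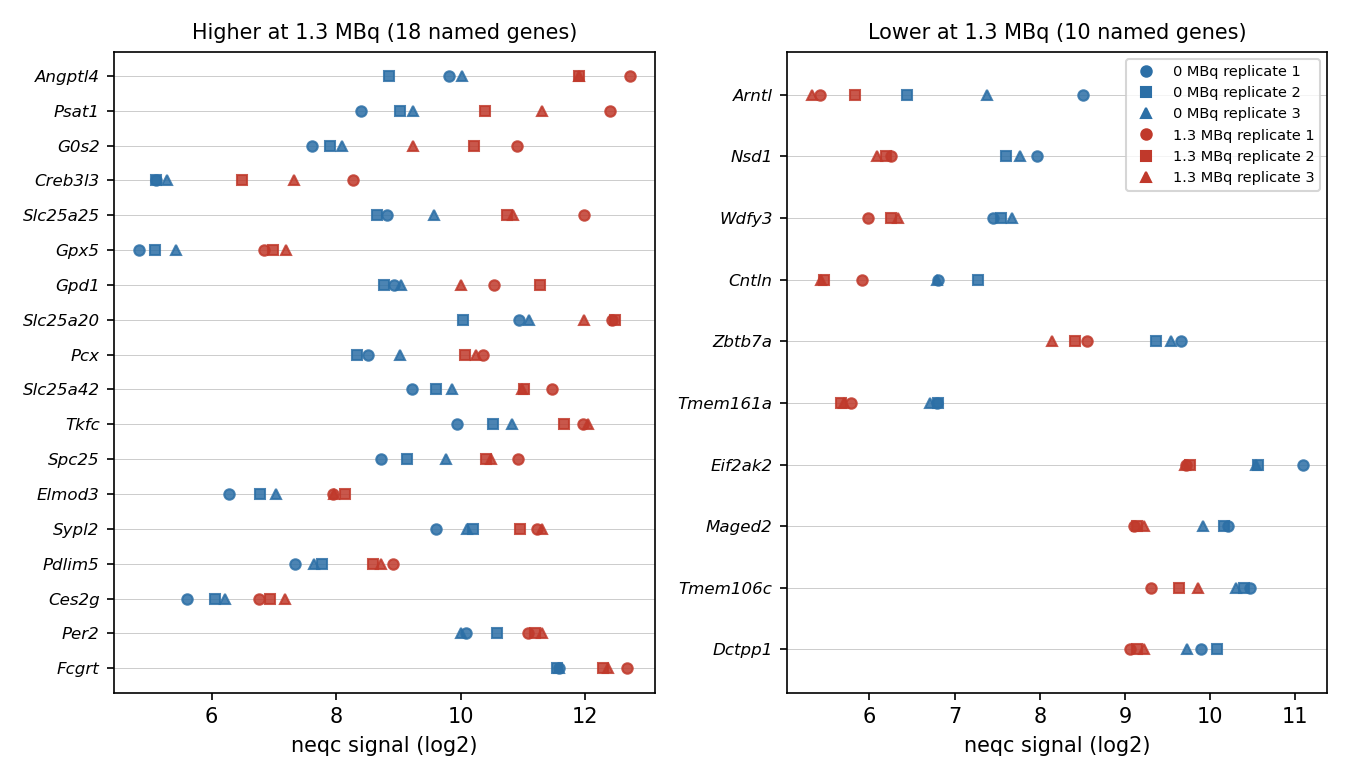
Normalised signal (log2, x axis) of each named gene called in cortex, on the 3 arrays at 0 MBq (blue) and the 3 at 1.3 MBq (red), with marker shapes for the replicate number. The 18 genes on the left lay higher and the 10 on the right lower on every 1.3 MBq array than on every control; Creb3l3 and Gpx5 were undetected on all 3 controls.

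Of 28 listed genes of fatty acid oxidation and PPARA targets 21 were measured, and 3 rose and 0 fell (0.204% and 0.13% of all genes). Angptl4 gave log2 signals of 12.73, 11.90 and 11.91 on the 1.3 MBq arrays and of 9.82, 8.85 and 10.02 on the controls. Each treated array lay well above each control, with treated replicate 1 highest. Angptl4, a secreted inhibitor of lipoprotein lipase that PPARA induces, rose by 2.62 ± 0.35 on the log2 scale (limma, adjusted p = 0.00325), and was called in all 6 leave-one-out fits, where its difference ran from 2.26 to 2.84 and its adjusted p to 0.0247. Slc25a20 read 12.44, 12.48 and 11.99 at 1.3 MBq against 10.95, 10.04 and 11.10 in the controls. The groups did not overlap, and control replicate 2 was the lowest. Slc25a20, the carrier that brings acylcarnitines into mitochondria, rose by 1.61 ± 0.26 (limma, adjusted p = 0.0122). Its call ended without 1.3 MBq replicates 1 or 2 (1.28 to 1.81, adjusted p up to 0.0805), and its other probe gave 1.32 ± 0.34.

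Creb3l3 encodes a membrane-bound transcription factor of liver and intestine that is induced by fasting and acts with PPARA. Creb3l3 signals were 8.27, 6.49 and 7.32 with the nuclide and 5.10, 5.11 and 5.29 without it. All 3 controls were undetected and all 3 treated arrays detected, with treated replicate 2 the nearest to the controls. Creb3l3 was at least 3.18-fold higher at 1.3 MBq (limma, adjusted p = 0.0327), a bound that sets the treated mean against, on each control array, the higher of the gene's own signal and the lowest detected signal. This call ended without 1.3 MBq replicates 1 or 3 or control replicates 1 or 2 (1.74 to 2.63, adjusted p up to 0.168).

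The other members of this list were not called. Plin2, which coats lipid droplets, had a difference of 2.18 ± 0.54 (adjusted p = 0.096). The acyl-CoA thioesterase gene Acot2 had 1.86 ± 0.40 (adjusted p = 0.0649), and the thiolase gene Acaa2 1.93 ± 0.45 (adjusted p = 0.0823). Acaa2 read 12.11, 12.27 and 12.27 at 1.3 MBq against 8.90, 10.23 and 11.71 in the controls. The treated arrays of Acaa2 were close together above controls that differed widely among themselves. Over the 21 genes the median difference was 0.82, and the median was the same with Creb3l3 at its bound, which lies above it. Of these genes 20 had a positive sign (48.2% of all genes tested) and 18 had an unadjusted p under 0.05 upward (5.76% of all). For 16 the 3 treated arrays lay above the 3 controls (9.13% of all). These counts are no test of the list, which was chosen with earlier results of these data known. The summed signal of the list ran from 115777 to 136441 on the treated arrays and from 70969 to 92494 on the controls, without overlap. Without control replicate 1 the median was 0.82, without 1.3 MBq replicate 2 it was 0.93 and without control replicates 1 and 2 it was 0.55.

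**Figure D2:**
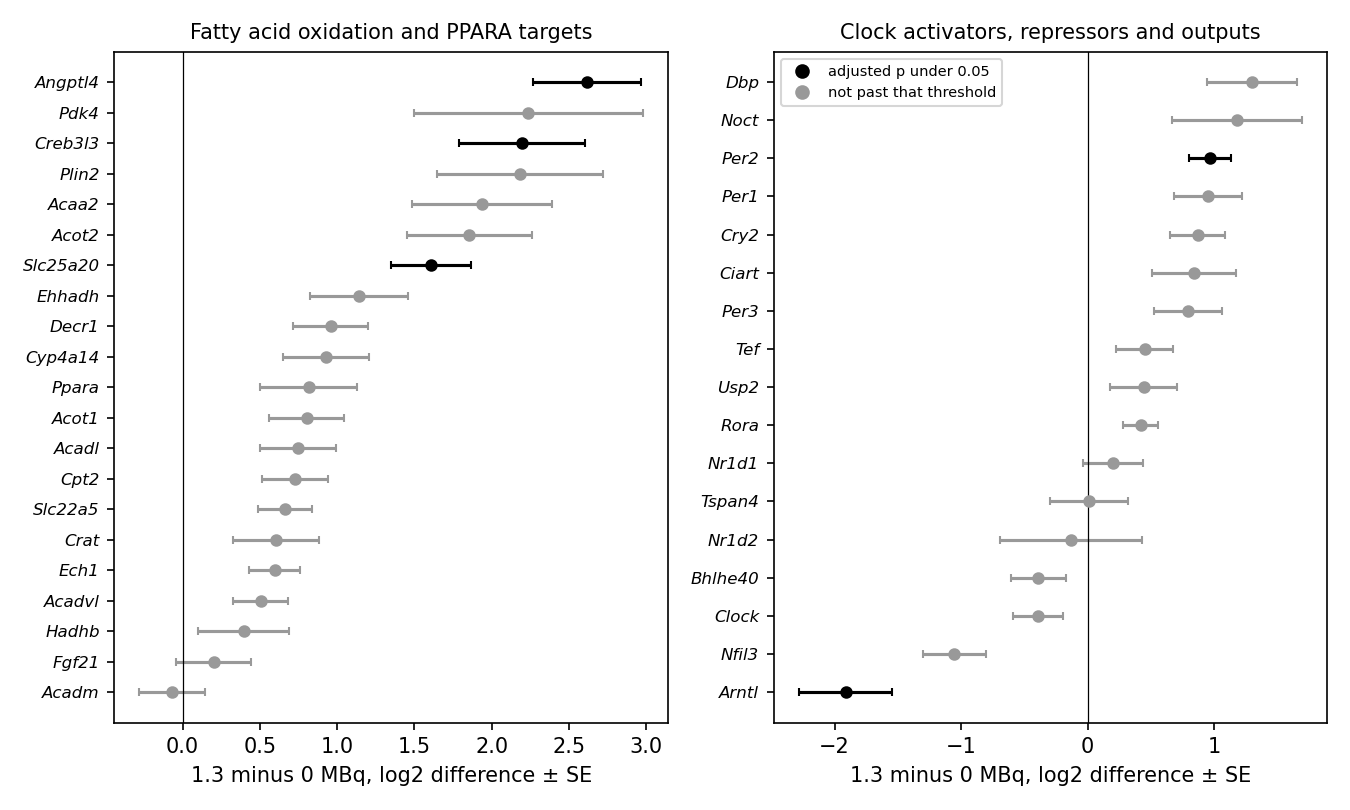
Difference between 1.3 and 0 MBq (log2, x axis, point and limma's SE) of the 21 measured fatty acid oxidation and PPARA genes (left) and the 17 measured clock genes (right), with genes past an adjusted p of 0.05 in black. Among the lipid genes Acadm, a dehydrogenase of medium-chain fatty acids, is the one with a value below 0, and Arntl and Per2 are the called clock genes.

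Mitochondrial carriers are proteins of the inner membrane that exchange metabolites with the cytosol, and 3 of 14 measured genes rose and 0 fell, with a median of 0.72. One of the 3 is Slc25a20, which was also counted among the fatty acid genes. Slc25a42 gave log2 signals of 11.46, 11.02 and 10.99 on the 1.3 MBq arrays and of 9.21, 9.60 and 9.86 on the controls. The treated arrays were close together and all above the controls, of which replicate 1 was the lowest. Slc25a42, which imports coenzyme A, rose by 1.60 ± 0.23 (limma, adjusted p = 0.00495), and in the leave-one-out fits its difference ran from 1.43 to 1.75 and its adjusted p to 0.0392. Slc25a25 read 11.98, 10.75 and 10.85 at 1.3 MBq against 8.82, 8.66 and 9.58 in the controls. Treated replicate 1 stood highest and no control reached a treated array. Slc25a25, a carrier of ATP-magnesium in exchange for phosphate, rose by 2.17 ± 0.37 (limma, adjusted p = 0.02), and its call ended without 1.3 MBq replicate 1 or control replicates 1 or 2 (1.78 to 2.45, adjusted p up to 0.11). The dicarboxylate carrier gene Slc25a10 had 1.10 ± 0.25 (adjusted p = 0.0767) and the pyrimidine nucleotide carrier gene Slc25a33 0.82 ± 0.23 (adjusted p = 0.143). The ornithine carrier gene Slc25a15 had 0.78 ± 0.23 (adjusted p = 0.161). Of the 14 genes 12 were positive (48.2% of all genes tested). The treated arrays lay all above the controls for 7 (9.13% of all) and all below them for 1 (9.62% of all). The median stayed between 0.61 and 0.79 when any 1 array was left out. In the respiratory chain list 0 of 33 genes were called by limma, 4 had an unadjusted p under 0.05 upward and the median was 0.11.

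Genes of lipid storage and lipolysis were led by G0s2, the inhibitor of the triglyceride lipase ATGL. G0s2 gave log2 signals of 10.91, 10.21 and 9.24 on the 1.3 MBq arrays and of 7.62, 7.90 and 8.10 on the controls. All treated arrays exceeded all controls, and treated replicate 3 came closest. G0s2 rose by 2.25 ± 0.38 (limma, adjusted p = 0.0167), a call that ended without 1.3 MBq replicates 1 or 2 or control replicates 1 or 2 (1.85 to 2.69, adjusted p up to 0.103). It was the 1 gene that rose of 17 measured in this list, with 0 that fell and a median of 0.79. Plin5, a lipid droplet protein that tethers droplets to mitochondria, had 1.90 ± 0.41 (adjusted p = 0.0649), and Dgat2, which makes triglycerides, 1.04 ± 0.24 (adjusted p = 0.0783). For both genes the treated arrays lay above the controls. Gpd1 read 10.54, 11.28 and 10.01 at 1.3 MBq against 8.94, 8.78 and 9.05 in the controls. Treated replicate 2 was highest and the controls were close together. Gpd1, the cytosolic glycerol phosphate dehydrogenase, rose by 1.69 ± 0.30 (limma, adjusted p = 0.0273) and was not called without 1.3 MBq replicates 1 or 2 or control replicates 1 or 2 (1.35 to 1.99, adjusted p up to 0.104).

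Adipocyte markers, some of which are also in the storage list, differed between arrays of 1 group. Relative to the mean over the 18 cortex arrays, the 13 measured markers lay on average at 0.07, 2.83 and -1.60 on 1.3 MBq replicates 1 to 3 and at 0.76, -1.87 and -0.90 on control replicates 1 to 3 (log2). Their summed signal ran from 7286 to 76313 on the treated arrays and from 8416 to 34892 on the controls, and Retn was undetected on all 6. Ucp1 read 10.27, 13.44 and 5.0 at 1.3 MBq against 5.87, 5.48 and 4.82 in the controls. The groups overlapped, with treated replicates 1 and 2 high. Ucp1, the uncoupling protein of brown fat, and Cidea, a lipid droplet protein, were each detected on 2 of 3 treated arrays and 1 of 3 controls, and neither was called (adjusted p = 0.323 and 0.671). In the adipocyte list limma called 0 genes, with 2 higher at an unadjusted p under 0.05, and its median of 0.79 ran from -0.57 to 1.65 when 1 array was left out. The median of the storage list was 0.30 without 1.3 MBq replicate 2. The fatty acid oxidation list was at 0.76, 0.43 and 0.18 on 1.3 MBq replicates 1 to 3. Without 1.3 MBq replicate 2, 13 of the 36 genes were called, against 10 without replicate 1 and 16 without replicate 3. With the adipocyte marker level as a covariate, an alternative added after the data were seen, 36 of the 36 were called. That level includes Pck1, which is also in the gluconeogenesis list, so it does not measure fat alone. The part of fat content in these differences was not tested.

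Enzymes of glucose and serine synthesis were among the rises. Pcx gave log2 signals of 10.36, 10.08 and 10.25 on the 1.3 MBq arrays and of 8.52, 8.34 and 9.02 on the controls. The treated arrays lay within a narrow band above the controls. Pcx, the pyruvate carboxylase that starts gluconeogenesis, rose by 1.60 ± 0.21 (limma, adjusted p = 0.00325), and in the leave-one-out fits its difference ran from 1.46 to 1.80 and its adjusted p to 0.0247. It was the 1 called gene of 10 in the gluconeogenesis list, whose median of 0.41 ran from 0.28 to 0.66 when 1 array was left out. Pck1, the cytosolic enzyme that follows it in the pathway, had 2.33 ± 0.69 (adjusted p = 0.168), and Fbp1, the fructose bisphosphatase, 0.86 ± 0.25 (adjusted p = 0.156). Pck1 read 11.87, 10.73 and 11.10 at 1.3 MBq against 7.52, 9.80 and 9.37 in the controls. Pck1 was higher on every treated array, with control replicate 1 far below the other controls. Psat1 signals were 12.41, 10.39 and 11.30 with the nuclide and 8.40, 9.03 and 9.24 without it. The treated arrays differed from each other by more than the controls did, and none overlapped them. Psat1, the transaminase of serine synthesis, rose by 2.48 ± 0.44 (limma, adjusted p = 0.0268), and its call ended without 1.3 MBq replicates 1 or 3 or control replicates 1 or 2 (1.96 to 2.97, adjusted p up to 0.123). It was the 1 called gene of 20 in the list of serine synthesis and ATF4 targets, whose median of 0.22 was 0.04 without 1.3 MBq replicate 2. In that list the mitochondrial serine hydroxymethyltransferase gene Shmt2 had 1.03 ± 0.34 (adjusted p = 0.22) and the stress sensor gene Sesn2 -0.86 ± 0.32 (adjusted p = 0.288).

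Tkfc gave log2 signals of 11.96, 11.67 and 12.04 on the 1.3 MBq arrays and of 9.94, 10.53 and 10.83 on the controls. The groups were apart, with control replicate 1 the lowest. Tkfc, the triokinase that phosphorylates glyceraldehyde from fructose, rose by 1.46 ± 0.26 (limma, adjusted p = 0.0268), a call that ended without 1.3 MBq replicates 1, 2 or 3 or control replicates 1 or 2 (1.21 to 1.65, adjusted p up to 0.132). On control replicate 1 the 24 proximal tubule markers were at their lowest too, at -0.96 relative to their mean over the cortex arrays (log2), against -0.25 to 0.26 on the other 5 arrays. Their part in these rises was not tested. Without control replicate 1, 12 of the 36 genes were called, Pcx and Slc25a42 among them, and Tkfc, Psat1, G0s2 and Gpd1 were not.

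Of 17 measured clock genes 2 were called, the activator gene Arntl and the repressor gene Per2. Arntl gave log2 signals of 5.43, 5.83 and 5.32 on the 1.3 MBq arrays and of 8.50, 6.44 and 7.38 on the controls. All treated arrays lay below all controls, and the controls themselves were spread, with replicate 1 highest. Arntl, which encodes the activator BMAL1, fell by 1.91 ± 0.37 on the log2 scale (limma, adjusted p = 0.0394), with 1 treated array of 3 detected. Its call ended without 1.3 MBq replicates 1, 2 or 3 or control replicate 1 (-1.38 to -2.41, adjusted p up to 0.186). Per2 read 11.08, 11.19 and 11.30 at 1.3 MBq against 10.09, 10.58 and 10.01 in the controls. The treated arrays were tightly grouped above the controls. Per2, a repressor of BMAL1 and CLOCK, rose by 0.97 ± 0.16 (limma, adjusted p = 0.0182), and its other probe by 1.08 ± 0.18 (adjusted p = 0.0218). The call of Per2 ended without 1.3 MBq replicates 1, 2 or 3 or control replicate 1 (0.86 to 1.15, adjusted p up to 0.11).

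Of 8 measured clock repressors Per2 was the 1 called, and the median was 0.82. Cry2 had 0.87 ± 0.22 (adjusted p = 0.0985), Per1 0.95 ± 0.27 (adjusted p = 0.147), Per3 0.79 ± 0.27 (adjusted p = 0.232) and Ciart, a further repressor of the loop, 0.84 ± 0.33 (adjusted p = 0.32). These 4 genes and Per2 were the 5 whose treated arrays all lay above the controls (9.13% of all genes tested). Ciart read 7.18, 7.30 and 7.64 at 1.3 MBq against 6.18, 7.17 and 6.24 in the controls. For Ciart control replicate 2 reached nearly the lowest treated array. Bhlhe40, which also represses the loop, had -0.39 ± 0.22 with overlapping groups. Among the 3 measured activators, Rora had 0.42 ± 0.14 (adjusted p = 0.232) and Clock -0.39 ± 0.20 (adjusted p = 0.448).

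Of 6 clock outputs limma called 0, with 2 higher and 1 lower at an unadjusted p under 0.05 and a median of 0.45. Dbp gave log2 signals of 13.11, 13.19 and 13.29 on the 1.3 MBq arrays and of 10.61, 12.77 and 12.32 on the controls. The treated arrays of Dbp agreed within a narrow band, above controls led downward by replicate 1. Dbp, a transcription factor that the clock drives directly, had 1.30 ± 0.36 (adjusted p = 0.141), and Nfil3, which represses at the same sites as Dbp, had -1.05 ± 0.25 (adjusted p = 0.0842). Noct, a clock-controlled phosphatase of dinucleotide cofactors, had 1.18 ± 0.51 (adjusted p = 0.362) with overlapping groups. Without control replicate 1 the median of the repressors was 0.57 and that of the outputs 0.45, and without control replicates 1 and 2 they were 0.64 and 0.51. In the glucocorticoid-responsive list, which also holds Per1, Slc25a25 was the 1 called gene of 13, with a median of 0.41. There Sgk1, a kinase that aldosterone and glucocorticoids induce, had 0.61 ± 0.22 (adjusted p = 0.268), and Fkbp5, a chaperone of the glucocorticoid receptor, 1.30 ± 0.54 (adjusted p = 0.336).

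BMAL1 and CLOCK bind the E-box CACGTG, and PPARA and ROR receptors bind sites built on the hexamer AGGTCA. Both motifs were searched on both strands (the E-box is its own reverse complement, that of the hexamer is TGACCT, and matches of both can overlap only by their end letters CA or TG) in RefSeq promoter windows of build GRCm38.p6, from 250 bases before to 50 after each start site. The E-box was in 7.15% of 32851 windows and the hexamer in 16.3%. Of the 28 named called genes 22 had a window. Angptl4, Gpd1, Nsd1, Per2, Tmem161a and Wdfy3 had none and were not searched. The E-box was in a window of 2 of them, Sypl2 and Pcx (8.09% of all genes with a window), and the hexamer in 5, Arntl, Creb3l3, Pcx, Pdlim5 and Zbtb7a (18.1% of all genes). These matches are descriptions of letters and not binding sites. Stretches of 30 bases before the start site are shown for the clock repressors Ciart and Per1, which were not called, for Sypl2 as a called gene with an E-box and for Creb3l3 as the called gene of the PPARA list with a hexamer match. Each runs 5′ to 3′ on the gene's strand, with the motif in capitals.
Ciart, chr3:95882262-95882291, minus strand: ggaggCACGTGcagaaccgCACGTGtctgg
Per1, chr11:69098771-69098800, plus strand: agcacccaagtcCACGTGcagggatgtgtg
Sypl2, chr3:108226657-108226686, minus strand: gcgatcgcacgcCACGTGactcggctgcca
Creb3l3, chr10:81092776-81092805, minus strand: taagtaggggagAGGTCAcacagacccgac
The stretch of Ciart holds 2 of the 3 E-boxes before its start site, the nearer of them 44 bases away. The match of Sypl2 starts 75 bases, that of Per1 166 bases and that of Creb3l3 202 bases before the start.

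Further rises fell outside these lists. Sypl2 gave log2 signals of 11.22, 10.96 and 11.31 on the 1.3 MBq arrays and of 9.60, 10.20 and 10.11 on the controls. Sypl2 was higher on each treated array, with control replicate 1 the lowest. This synaptophysin relative of the muscle membrane system rose by 1.19 ± 0.18 (limma, adjusted p = 0.00906), and its call ended without 1.3 MBq replicates 1 or 3 (1.01 to 1.31, adjusted p up to 0.0585). Pdlim5 read 8.92, 8.60 and 8.72 at 1.3 MBq against 7.34, 7.77 and 7.65 in the controls. No control reached a treated array. Pdlim5, a scaffold that links kinases to the cytoskeleton, rose by 1.16 ± 0.15 (limma, adjusted p = 0.00325), and in the leave-one-out fits its difference ran from 1.03 to 1.25 and its adjusted p to 0.0247. Its 2 other tested probes, of weaker signal, gave 0.93 ± 0.28 and 0.61 ± 0.25. Spc25, a kinetochore subunit, rose by 1.39 ± 0.26 (adjusted p = 0.0377), with 1.27 ± 0.31 on its other probe, and the GTPase-activating protein gene Elmod3 by 1.33 ± 0.21 (adjusted p = 0.0122), with 1.14 ± 0.25 on its other probe. The call of Spc25 ended without 1.3 MBq replicates 1, 2 or 3 or control replicates 1 or 2 (1.15 to 1.67, adjusted p up to 0.209). That of Elmod3 ended without 1.3 MBq replicates 1 or 2 or control replicate 1 (1.11 to 1.5, adjusted p up to 0.0667).

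Gpx5 gave log2 signals of 6.85, 6.99 and 7.20 on the 1.3 MBq arrays and of 4.83, 5.09 and 5.43 on the controls. The controls were all undetected and the treated arrays all detected. Gpx5, a glutathione peroxidase known from the epididymis, was at least 2.49-fold higher (limma, adjusted p = 0.0122), a call that ended without 1.3 MBq replicates 1, 2 or 3 or control replicates 1 or 2 (1.75 to 2.05, adjusted p up to 0.0805). Fcgrt and Ces2g were named after their values were seen. Fcgrt read 12.68, 12.28 and 12.37 at 1.3 MBq against 11.58, 11.55 and 11.59 in the controls. Fcgrt, the neonatal Fc receptor that salvages albumin and antibodies in the tubule, rose by 0.87 ± 0.18 (limma, adjusted p = 0.0499), and was not called without 1.3 MBq replicates 1, 2 or 3 or control replicates 1 or 2 (0.76 to 0.95, adjusted p up to 0.247). The controls of Fcgrt were nearly identical and the treated arrays all above them. Ces2g, a carboxylesterase, rose by 1.00 ± 0.20 (limma, adjusted p = 0.0457), with 0.21 ± 0.21 on its other, weaker probe, and was not called without 1.3 MBq replicates 1, 2 or 3 or control replicates 1 or 2 (0.82 to 1.13, adjusted p up to 0.176). An unnamed probe, ILMN_1216322, had the largest called rise, 3.20 ± 0.61 (adjusted p = 0.0377), and was not called without 1.3 MBq replicates 1, 2 or 3 or control replicates 1 or 2 (2.23 to 3.99, adjusted p up to 0.186). Probe ILMN_2958159 rose by 1.10 ± 0.14 (adjusted p = 0.00325) and was called in all 6 leave-one-out fits.

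Among the 10 named falls, Nsd1 had the smallest p. Nsd1 gave log2 signals of 6.25, 6.20 and 6.09 on the 1.3 MBq arrays and of 7.97, 7.60 and 7.77 on the controls. Treated and control arrays formed tight groups far from each other. Nsd1, a histone lysine methyltransferase, fell by 1.60 ± 0.16 (limma, adjusted p = 0.000297), and in the leave-one-out fits its difference ran from -1.5 to -1.69 and its adjusted p to 0.00478. A weaker probe of Nsd1 gave 0.00 ± 0.32, so its probes disagreed. Wdfy3 read 5.99, 6.25 and 6.34 at 1.3 MBq against 7.46, 7.55 and 7.68 in the controls. The groups were again tight and apart. Wdfy3, an adaptor of selective autophagy, fell by 1.37 ± 0.19 (limma, adjusted p = 0.00495), with -0.34 ± 0.30 on a weaker probe. Cntln signals were 5.91, 5.46 and 5.43 with the nuclide and 6.81, 7.28 and 6.79 without it. All 3 treated arrays were lower, and 1 of them was detected. Cntln, a centrosomal linker protein, fell by 1.36 ± 0.19 (limma, adjusted p = 0.00506), with -0.25 ± 0.36 on a weaker probe. Wdfy3 and Cntln were called in all 6 leave-one-out fits.

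Zbtb7a gave log2 signals of 8.56, 8.41 and 8.14 on the 1.3 MBq arrays and of 9.66, 9.37 and 9.54 on the controls. Every treated array lay below every control. Zbtb7a, a transcriptional repressor, fell by 1.15 ± 0.18 (limma, adjusted p = 0.0122), and its call ended without 1.3 MBq replicates 2 or 3 or control replicate 1 (-1.03 to -1.24, adjusted p up to 0.0761). Eif2ak2 read 9.71, 9.77 and 9.70 at 1.3 MBq against 11.09, 10.56 and 10.53 in the controls. The treated arrays were almost equal, and control replicate 1 was the highest control. Eif2ak2, the interferon-induced kinase PKR that senses double-stranded RNA, fell by 1.00 ± 0.20 (limma, adjusted p = 0.0499), and was not called without 1.3 MBq replicates 1, 2 or 3 or control replicates 1 or 2 (-0.82 to -1.10, adjusted p up to 0.209). Maged2 signals were 9.11, 9.14 and 9.23 with the nuclide and 10.20, 10.16 and 9.91 without it. Its treated arrays were close together below the controls. Maged2, loss of which causes a transient salt-wasting disorder in humans, fell by 0.93 ± 0.18 (limma, adjusted p = 0.0444), and its call ended without 1.3 MBq replicates 1, 2 or 3 or control replicates 1 or 2 (-0.88 to -1.02, adjusted p up to 0.209). The membrane protein genes Tmem161a and Tmem106c fell by 1.06 ± 0.20 (adjusted p = 0.0393) and 0.79 ± 0.15 (adjusted p = 0.0444), and the dCTP pyrophosphatase gene Dctpp1 by 0.76 ± 0.15 (adjusted p = 0.0499). These 3 calls ended without 1.3 MBq replicates 1 or 2 or control replicates 1 or 2, and those of Tmem161a and Dctpp1 also without 1.3 MBq replicate 3, with adjusted p up to 0.223. Of 4 unnamed probes that fell, ILMN_2657037 was undetected on all treated arrays and at least 1.84-fold lower (adjusted p = 0.00722).

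The threshold cut through a dense run of values. Just inside it were, with 2 unnamed probes, Dctpp1, Eif2ak2 and Fcgrt, all at an adjusted p of 0.0499, and just outside were Col27a1 (2.04 ± 0.42, adjusted p = 0.0570), Cyp2d40 (1.44 ± 0.30, adjusted p = 0.0583) and Eci1 (0.87 ± 0.19, adjusted p = 0.0649), which were chosen after their values were seen.

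The p53 target list addressed whether the DNA damage programme was raised by the lowest activity at 24 h. Of 27 measured targets limma called 0, 3 upward and 2 downward had an unadjusted p under 0.05, and the median was -0.04. The summed signal of the list ran from 19136.5 to 20348.8 on the treated arrays and from 16224.4 to 18608.4 on the controls, without overlap. Its mean deviation from the mean over the cortex arrays did overlap (log2, -0.52 to -0.47 treated, -0.53 to -0.43 controls). The difference in summed signal was not tested. Cdkn1a gave log2 signals of 8.61, 8.28 and 7.63 on the 1.3 MBq arrays and of 8.86, 8.40 and 7.38 on the controls. The groups overlapped. Cdkn1a, the p21 cell cycle inhibitor, had a difference of -0.04 ± 0.35 (adjusted p = 0.977). Ccng1 read 11.98, 11.95 and 12.18 at 1.3 MBq against 11.57, 11.51 and 11.62 in the controls. Ccng1, the cyclin G gene, was higher on each treated array than on each control. It had 0.47 ± 0.14 (adjusted p = 0.161), and the epoxide hydrolase gene Ephx1 had 0.63 ± 0.23 (adjusted p = 0.283). The proapoptotic gene Bbc3 had -0.69 ± 0.26 (adjusted p = 0.284) with overlapping groups. Sesn2, given above with the ATF4 targets, is also in the p53 list and had -0.86 without a call. In the DNA repair list 0 of 26 genes were called by limma, 2 higher and 1 lower had an unadjusted p under 0.05, and the median was 0.03.

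The arrays at 140 MBq were compared with those at 1.3 MBq without use of a control array. Here 49 of 10803 genes were called (0.454%), 46 higher at 140 MBq (0.426%) and 3 lower (0.0278%). Of the 27 p53 targets 11 were higher and 0 lower, with a median of 0.88. Ccng1 differed by 1.58 ± 0.14 (limma, adjusted p = 3.3e-05), and Cdkn1a by 3.69 ± 0.35 (adjusted p = 5.51e-05). Gtse1, a regulator of p53 stability, was undetected on the 3 arrays at 1.3 MBq and was at least 6.18-fold higher at 140 MBq (adjusted p = 3.3e-05). Svop, a transporter-like gene outside that list, was undetected there too and at least 2.44-fold higher (adjusted p = 5.05e-05). The 3 lower genes were Gpx5 (undetected on the 3 arrays at 140 MBq and at least 2.39-fold lower, adjusted p = 0.0148), Serpinf2, the antiplasmin gene (-1.57 ± 0.28, adjusted p = 0.0136) and Grpel2, a mitochondrial import cochaperone gene (-0.97 ± 0.17, adjusted p = 0.0117). Of the 36 genes called at 1.3 MBq, 2 were called in this comparison, Gpx5 and Ces2g (1.05 ± 0.20, adjusted p = 0.0212). Leaving out 140 MBq replicate 3 lowered the count to 30. The list of fatty acid oxidation and PPARA targets had 0 called of 21 by limma and a median of -0.45 for 140 minus 1.3 MBq. For Pcx the difference was -0.97 ± 0.21 (limma, adjusted p = 0.0645) and for Psat1 -1.80 ± 0.44 (adjusted p = 0.111). For Angptl4 it was -0.81 ± 0.35 (adjusted p = 0.493). These 3 genes and Gpx5 had been called as rises from the same 1.3 MBq arrays, which favours a negative difference here.

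Between 3.6 and 1.3 MBq limma called 0 of 10803 genes (0%), and 525 (4.86%) had an unadjusted p under 0.05, 330 higher (3.05%) and 195 lower (1.81%) at 3.6 MBq. The smallest p belonged to Gpx5 downward (-1.62, adjusted p = 0.861, detected on 1 of 3 arrays at 3.6 MBq) and, upward, to Fancd2os, which was undetected on the arrays at 1.3 MBq and at least 2-fold higher (adjusted p = 0.907). Psat1 had -1.74 ± 0.44 (limma, adjusted p = 0.907). Gpx5 and Psat1 had been called as rises from the 1.3 MBq arrays reused here, which favours a negative difference. Leaving out 3.6 MBq replicate 1 gave 179 calls, and leaving out any other array of the 2 groups gave 0.

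Against the same 3 controls, the other activities gave the following values, which share those control arrays with each other and with the comparison at 1.3 MBq. Genes named for their call at 1.3 MBq were chosen by their difference there, which favours a larger difference at that activity. Over all genes 0.435% were called at 3.6 MBq (0.305% higher, 0.13% lower), 1.37% at 14 MBq (0.537% and 0.833%), 0.99% at 45 MBq (0.602% and 0.389%) and 0.953% at 140 MBq (0.768% and 0.185%). Angptl4 had 2.34 ± 0.35, 2.70 ± 0.35, 2.46 ± 0.35 and 1.81 ± 0.35 at 3.6, 14, 45 and 140 MBq. Slc25a42 had 1.78 ± 0.23, 1.54 ± 0.23, 1.31 ± 0.23 and 1.12 ± 0.23. Both genes were called at each of these activities. Psat1 had 0.74 ± 0.44, 1.26 ± 0.44, 0.68 ± 0.44 and 0.68 ± 0.44, and Pcx 0.93 ± 0.21, 0.80 ± 0.21, 0.80 ± 0.21 and 0.63 ± 0.21. Neither Psat1 nor Pcx was called above 1.3 MBq. G0s2 had 1.71 ± 0.38, 1.30 ± 0.38, 1.25 ± 0.38 and 0.96 ± 0.38, with no call above 1.3 MBq. Arntl was undetected on all arrays at these activities and was at least 3.02-fold, 3.16-fold, 3.18-fold and 3.22-fold lower than in the controls. Per2 had 1.58 ± 0.16, 1.31 ± 0.16, 1.27 ± 0.16 and 1.20 ± 0.16, and Nsd1 had -1.75 ± 0.16, -1.96 ± 0.16, -1.81 ± 0.16 and -1.45 ± 0.16. Arntl, Per2 and Nsd1 were called at each activity. Cdkn1a had 0.10 ± 0.35 at 3.6 MBq and 1.85 ± 0.35 at 14 MBq, and was called from 14 MBq up. The median of the fatty acid oxidation list was 0.67, 0.62, 0.60 and 0.34 and that of the p53 targets 0.11, 0.41, 0.56 and 0.95 at 3.6, 14, 45 and 140 MBq.

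**Figure D3:**
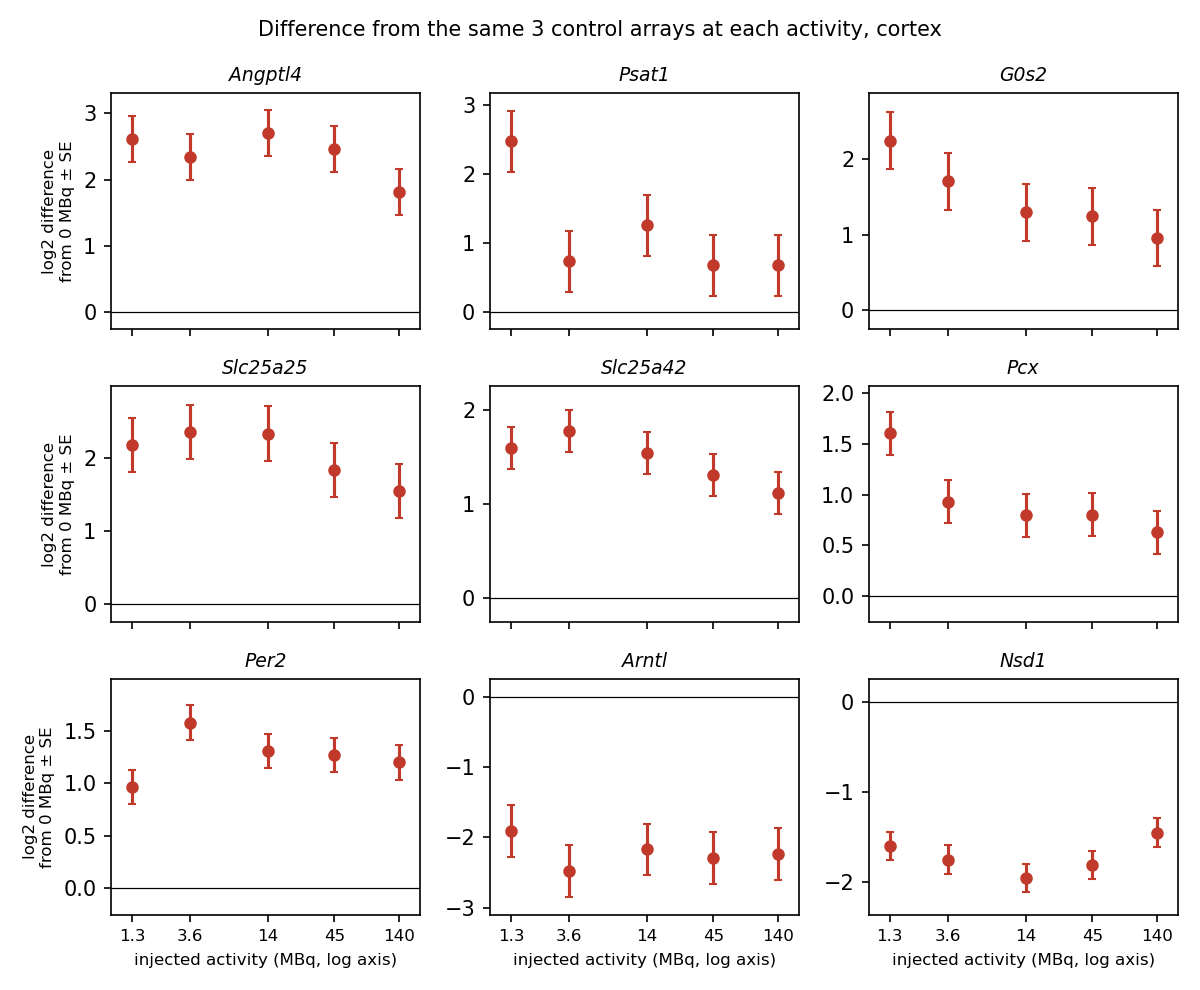
Difference from 0 MBq (log2, y axis, point and limma's SE) of 9 genes called at 1.3 MBq, against injected activity on a log axis, with a y scale of its own in each panel. Every point is set against the same 3 control arrays, and the choice of genes by their call at 1.3 MBq favours larger differences there. Psat1 and Pcx stood highest at 1.3 MBq (2.48 and 1.60), while Angptl4 lay at 2.62 at 1.3 MBq and at 2.34 at 3.6 MBq. The points of Arntl above 1.3 MBq rest on undetected signals.

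Immune gene lists lay below the controls in the median, against controls that differed among themselves. Of 30 measured interferon-stimulated genes limma called 0, 11 had an unadjusted p under 0.05 downward and 0 upward, and the median was -1.01. The list does not hold Eif2ak2, the interferon-induced gene given above among the called falls. Gbp3 gave log2 signals of 9.64, 10.54 and 9.61 on the 1.3 MBq arrays and of 13.15, 11.43 and 10.58 on the controls. The treated arrays of this guanylate-binding protein gene were below all controls, with control replicate 1 far above the rest. Gbp3 had -1.79 ± 0.51 (adjusted p = 0.154) and Oasl2, a sensor of viral RNA, -1.71 ± 0.49 (adjusted p = 0.155). As means over the list, relative to the 18 cortex arrays, interferon-stimulated genes lay at 1.86, 0.67 and -0.08 on control replicates 1 to 3 and at 0.08, -0.12 and -0.45 on 1.3 MBq replicates 1 to 3. Control replicate 3 was thus within the range of the treated arrays. Without control replicate 1 the median was -0.47, and without control replicates 1 and 2 it was -0.10.

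MHC genes and leukocyte markers were likewise highest on control replicate 1. The 9 measured MHC class II genes lay at 2.32, 1.80 and -0.31 on the controls and at 1.84, 0.19 and -0.36 on the treated arrays, and limma called 0, with 1 lower at an unadjusted p under 0.05. Their median of -0.75 was 1.16 without control replicates 1 and 2. Ciita, the activator of that class, had -2.09 ± 0.63 (adjusted p = 0.183), with 1 treated array of 3 detected. The 15 MHC class I genes had 0 called and 1 lower at an unadjusted p under 0.05, with a median of -0.62 that was 0.08 without control replicate 1 and 0.73 without control replicates 1 and 2. Of 16 measured myeloid markers limma called 0, with 5 lower at an unadjusted p under 0.05, and the median of -0.83 was -0.35 without control replicate 1 and 0.05 without control replicates 1 and 2. Their summed signal ran from 6568 to 28511 on the controls and from 4221 to 8706 on the treated arrays, and Itgam, Itgax, Fcer1g and Cybb were undetected on all 6. Aif1, a macrophage marker, had -1.56 ± 0.46 (adjusted p = 0.166). Of 14 cytokine and chemokine genes limma called 0, with 6 lower at an unadjusted p under 0.05. Their median of -0.54 ran from -0.30 to -1.18 when 1 array was left out, the latter without control replicate 3, and was 0.13 without control replicates 1 and 2. The chemokine gene Ccl12 had -1.83 ± 0.40 (adjusted p = 0.0649), with 1 treated array of 3 detected. The part of leukocyte content in these differences was not tested.

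**Figure D4:**
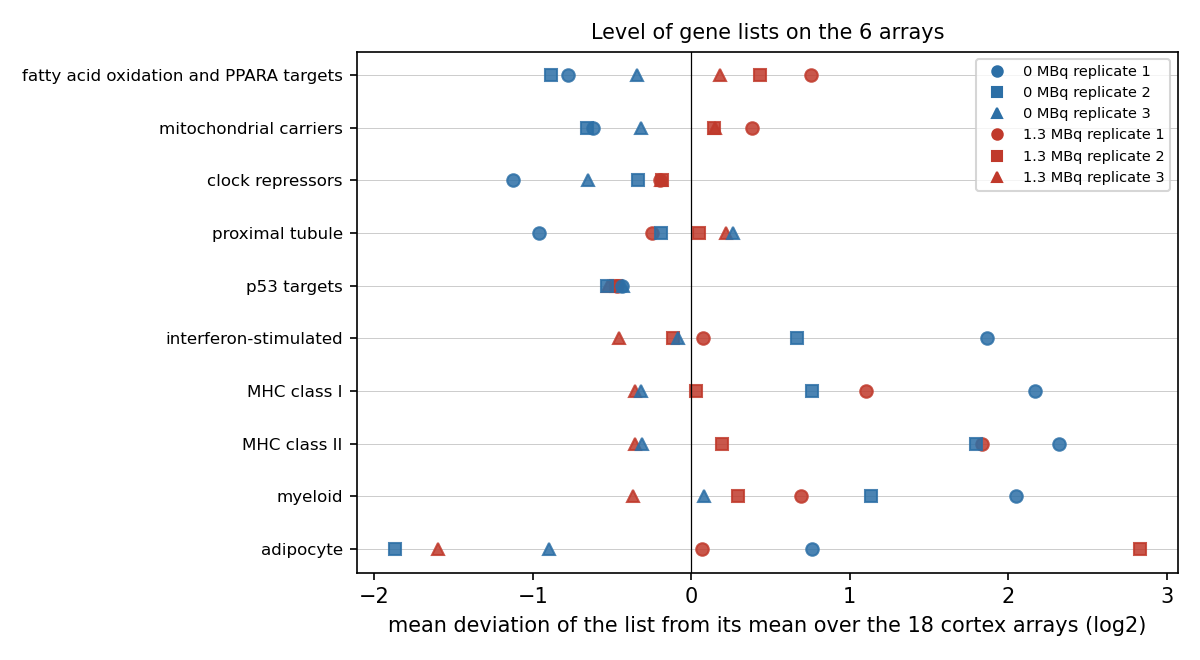
Mean deviation (log2, x axis) of 10 gene lists from their mean over the 18 cortex arrays, on the 3 arrays at 0 MBq (blue) and the 3 at 1.3 MBq (red). The lists of fatty acid oxidation, mitochondrial carriers and clock repressors did not overlap between groups. Lists not drawn did so too, such as the respiratory chain (0.02 to 0.10 treated, -0.20 to 0.01 controls). The summed signal of the clock repressors did overlap (8544 to 9417 treated, 5738 to 10133 controls). Control replicate 1 was far to the right for interferon (1.86), MHC class I (2.17) and myeloid genes (2.05), and 1.3 MBq replicate 2 for adipocyte markers (2.83).

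Kidney cell type markers and injury genes gave no call. Of 24 measured proximal tubule markers limma called 0, with 4 higher and 1 lower at an unadjusted p under 0.05, and the median was 0.24, which was 0.00 without control replicate 1. Slc22a6 gave log2 signals of 13.30, 12.55 and 13.03 on the 1.3 MBq arrays and of 11.45, 12.32 and 12.24 on the controls. All treated arrays of this organic anion transporter gene were above the controls. Slc22a6 had 0.95 ± 0.30 (adjusted p = 0.192), and Dpep1, a brush border dipeptidase gene, 1.65 ± 0.49 (adjusted p = 0.168). Of 7 thick limb markers 0 were called, with 2 lower at an unadjusted p under 0.05 and a median of -0.33, and of 17 collecting duct markers 0 were called, with 0 at an unadjusted p under 0.05 and a median of -0.30 that was 0.10 without control replicate 1 and 0.03 without control replicates 1 and 2. Megalin, the uptake receptor encoded by Lrp2, had -0.28 ± 0.30 (adjusted p = 0.772) on a probe detected on 2 of 3 treated arrays, and Sstr2, the main receptor of octreotate, was detected on 0 of the 18 cortex arrays. Among 16 kidney injury genes limma called 0, 3 had an unadjusted p under 0.05 downward, and the median of -0.39 was 0.33 without control replicates 1 and 2. Havcr1 read 7.10, 10.81 and 10.47 at 1.3 MBq against 12.33, 12.69 and 11.09 in the controls. The treated arrays of Havcr1 were spread below the controls. Havcr1, the tubular injury marker KIM-1, had -2.58 ± 0.93 (adjusted p = 0.27). Lcn2, another such marker, had -1.90 ± 1.01 with overlapping groups. The control arrays were high for the injury list on replicate 2 (1.14 above the mean over the cortex arrays), against 0.29 on replicate 1 and -0.33 on replicate 3.

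The same activity was measured in medulla, on other arrays, and same-numbered cortex and medulla arrays deviated together, with correlations of 0.223 to 0.353 at 1.3 MBq and 0.636 to 0.671 at 0 MBq. In medulla 56 of 11471 genes were called at 1.3 against 0 MBq (0.488%), and of the 36 genes called in cortex 23 were called there, 15 up (0.392% of all genes) and 8 down (0.0959%). Angptl4 read 12.92, 11.71 and 11.52 on the treated and 9.28, 9.30 and 10.44 on the control arrays of medulla. The groups did not overlap, and treated replicate 1 was again the highest. In medulla Angptl4 rose by 2.38 ± 0.38 (limma, adjusted p = 0.00149), Slc25a42 by 1.74 ± 0.23 (adjusted p = 0.000106), Pcx by 1.31 ± 0.20 (adjusted p = 0.00119) and Per2 by 1.00 ± 0.17 (adjusted p = 0.00341). Arntl had -1.53 ± 0.33 (adjusted p = 0.026) and Nsd1 -1.56 ± 0.15 (adjusted p = 5.72e-07), both called. Pdlim5 had 0.65 ± 0.19 (adjusted p = 0.124) and was not called. Creb3l3 and Gpx5 were undetected on the medulla controls too and were not called there (adjusted p = 0.172 and 0.259). The difference between tissues was tested itself, in a fit without a block for same-numbered arrays. Limma called 0 of 11471 genes for an interaction (0%), and 167 (1.46%) had an unadjusted p under 0.05. Of these the cortex difference was higher for 66 (0.575%) and lower for 101 (0.88%). For Angptl4 the cortex difference exceeded that of medulla by 0.24 ± 0.54. The smallest p in that test belonged to Spata2, Tomm40 and Slc39a4, each of which was undetected on all 3 arrays of at least 1 group, so that no size is given. With a block of tissue pairs limma called 0 for the interaction too, with 111 genes higher and 172 lower at an unadjusted p under 0.05. The median of the fatty acid oxidation list was 0.81 in medulla.

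**Figure D5:**
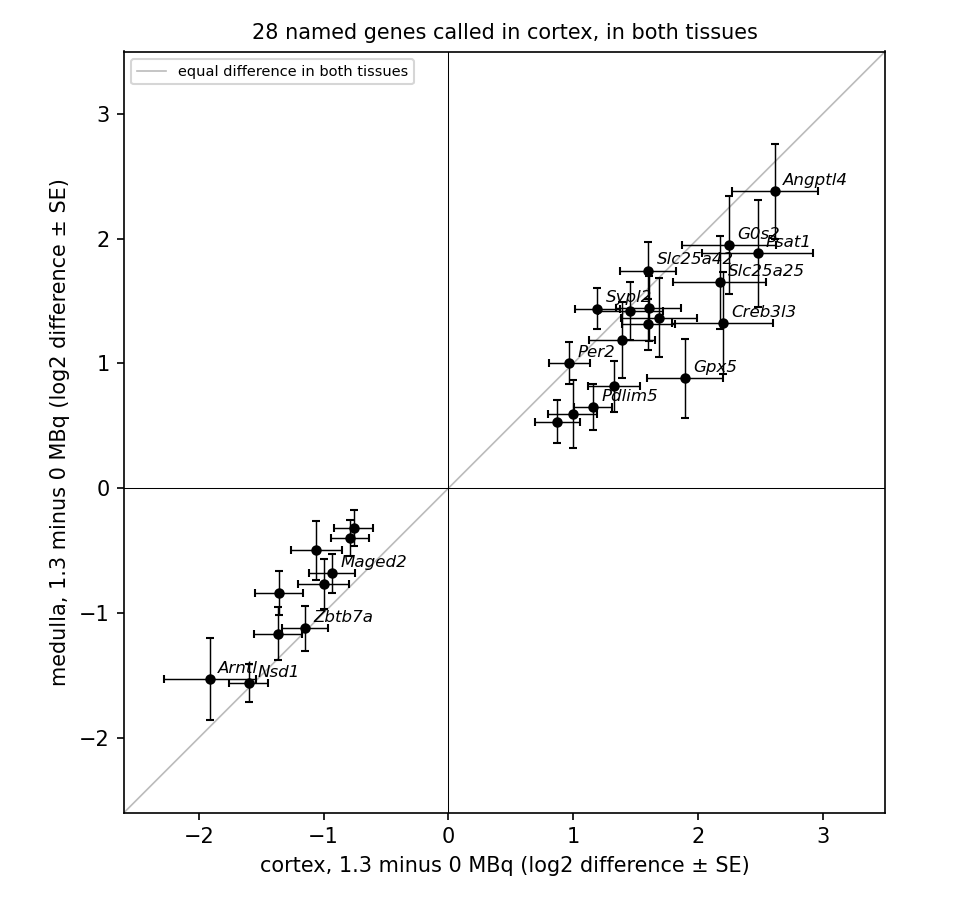
Difference between 1.3 and 0 MBq (log2, point and limma's SE) of the 28 named genes called in cortex, in cortex (x axis) and in medulla (y axis), with the line of equal difference. Angptl4 (2.62 and 2.38) and Nsd1 (-1.60 and -1.56) lie near the line. Creb3l3 and Gpx5 were undetected on the controls of both tissues, so their positions are no measured differences.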

How the data were processed

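RNA from fresh-frozen kidney cortex and medulla was labelled with biotin and hybridised to Illumina bead arrays, per the labels' protocols. The authors deposited, for each array, the non-normalised signal intensity of 25697 probes and a detection p-value for each, per the file headers, in 798 steps. A second deposited table of intensity values, on a linear scale, served as an alternative. How it was normalised is not given in the sources used here, but its 36 columns had medians between 170.5 and 170.9 and log2 values that correlated with the raw signals at 0.998 or more. For 7 probes it gave no value.

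All 36 arrays were background-corrected and quantile-normalised together with neqc of limma 3.58.1 (R 4.3.3, with the data.table package at 1.17.8), which estimates the background from the detection p-values, with an offset of 16, and values are on the log2 scale. A probe was kept when its detection p-value was under 0.05 on at least 3 of the 18 cortex arrays. For each gene the kept probe with the highest mean signal was tested, which gave 9952 named genes and 851 unnamed probes. Gene symbols came from the platform annotation supplied for the probes: 23974 probes had 1 symbol, 0 several and 1723 none, for 16593 symbols, of which 0 needed replacing.

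The 1.3 and 0 MBq groups were compared in 1 fit of the 6 cortex groups with lmFit and eBayes (12 residual degrees of freedom), two-sided, with Benjamini-Hochberg adjustment over all 10803 genes and a call at an adjusted p under 0.05. The comparisons with 3.6 and 140 MBq came from the same fit, and the medulla comparison and the interaction from a fit of all 36 arrays (24 residual degrees of freedom). The scripts were tested on simulated data. Figures were drawn with matplotlib 3.10.9.

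Named genes were the 15 largest rises and falls among called genes with groups that did not overlap, the 3 smallest p-values in each direction and up to 6 members of each list with the smallest p-values. To these were added the 3 smallest p-values each way in the comparisons with 3.6 and 140 MBq, the 3 smallest in the interaction, and Cdkn1a, Lrp2 and Sstr2. Members and lists were chosen with earlier results of these data known.

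Replicate numbers recur in every group. Same-numbered cortex and medulla arrays of 1 activity deviated together. Correlations of their deviations from the group means were 0.223 to 0.353 at 1.3 MBq and 0.636 to 0.671 at 0 MBq. The medulla comparison and the interaction were fitted without this pairing. A block of tissue pairs was an alternative for the interaction only. Alternatives were the deposited table, no background correction, neqc on cortex alone, an offset of 50, other detection filters, every probe, a replicate block, fewer or more arrays in the fit, array weights, a stricter call and each array left out. Others were added after the data were seen, namely a block of tissue pairs, pairs of arrays left out and the adipocyte marker level as a covariate.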

Additional observations from a re-analysis of the deposited data

How the results depend on the processing

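Against the 36 calls for 1.3 against 0 MBq in cortex, the deposited values gave 56 (35 higher, 21 lower), no background correction 55, the stricter detection filter 59, all 36 arrays in the fit 227 (141 higher, 86 lower) and array weights 364 (181 higher, 183 lower). Fewer were called with the replicate block (18, 13 of them higher), with the stricter call (10) and with only the 6 arrays compared (0, with 572 higher and 622 lower at an unadjusted p under 0.05 in limma). Leaving out 1 array gave between 10 and 157 calls, the highest without control replicate 3 (77 higher, 80 lower). Alternatives added after the data were seen gave 1 call without control replicate 1 and 1.3 MBq replicate 2, 0 without control replicates 1 and 2, and 178 with the adipocyte covariate. The other 4 settings (neqc on cortex alone, an offset of 50, no detection filter, every probe) gave between 34 and 48. Of the 36 called genes 0 reversed in any of these settings. They were called again in 32 cases with the deposited values, 36 with array weights, 35 with all arrays in the fit and 18 with the block. The replicate numbers of these 2 groups showed no pairing, with correlations between -0.27 and 0.28, so that the block result describes only a shared number.

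For 3.6 against 1.3 MBq the count of 0 became 1098 with array weights (467 higher, 631 lower) and ran from 0 to 179 when 1 array was left out, while it was 0 in each other setting. For 140 against 1.3 MBq the 49 calls became 146 with all 36 arrays in the fit, 151 with array weights, 29 with the stricter call, between 30 and 49 when 1 array was left out and 46 with the replicate block. The interaction gave 0 calls in every setting run, including the replicate block and the block of tissue pairs, which left 70 and 111 genes higher and 103 and 172 lower at an unadjusted p under 0.05 in limma. The causes of these shifts were not tested. Over the single genes and lists, 5308 comparisons with an alternative kept their side of the threshold or moved within the spread, 285 calls were lost, 112 were gained and 33 list medians moved by more than the spread between arrays.

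With 3 arrays a group, changes near the size of the spread between arrays could not be called. Control replicate 1 had the lowest signal of the cortex arrays. Genes near background, such as Creb3l3, Gpx5, Arntl, Cntln, Tmem161a and Ces2g, have bounds or poorly measured levels in 1 group. Tmem161a was detected on 2 of 3 treated arrays and Ces2g on 2 of 3 controls.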

Other observations

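Several metabolic and transport genes outside the groups described above had their 3 arrays at 1.3 MBq apart from the 3 controls without being called. Of all genes tested, 9.13% had the 3 treated arrays above the 3 controls and 9.62% below. Vdr, the vitamin D receptor, read 12.80, 11.69 and 11.78 at 1.3 MBq against 11.16, 10.83 and 11.17 in the controls, and its difference was 1.04 ± 0.30 (limma, adjusted p = 0.157). All treated arrays of Vdr were higher, with replicate 1 highest. The xenobiotic enzyme gene Cyp2e1 had 1.49 ± 0.47 (limma, adjusted p = 0.192) and Cyp4b1 1.49 ± 0.43 (limma, adjusted p = 0.157). Of 15 measured cytochrome P450 genes limma called 0, with 6 higher and 1 lower at an unadjusted p under 0.05, and the median of 0.15 ran from -0.06 to 0.65 when 1 array was left out.

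Hypoxia targets went both ways. Slc2a1, the glucose transporter GLUT1, had -0.82 ± 0.19 (limma, adjusted p = 0.0855), and Egln3, an oxygen-sensing hydroxylase, 1.26 ± 0.32 (limma, adjusted p = 0.105). Of 14 measured targets limma called 0, with 3 higher and 3 lower at an unadjusted p under 0.05 and a median of 0.16. Hmox1, the haem oxygenase that NRF2 induces, had 1.21 ± 0.36 (limma, adjusted p = 0.168, detected on 2 of 3 controls), while the median of the 20 NRF2 targets was 0.01.

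Immediate early genes lay lower in the median. Egr1, an early growth response transcription factor, read 8.71, 9.52 and 9.64 at 1.3 MBq against 10.29, 11.28 and 10.61 in the controls. Every treated array of Egr1 was below every control, and its difference was -1.44 ± 0.37 (limma, adjusted p = 0.105). Of 14 immediate early genes limma called 0, with 5 lower and 0 higher at an unadjusted p under 0.05, and the median of -0.21 ran from -0.10 to -0.48 when 1 array was left out and was -0.02 without control replicates 1 and 2.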
